A study of Macaca mulatta with 12 samples.

Results

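The comparison described here set the heterozygous parthenogenetic rhesus macaque embryonic stem (ES) cell line rPESC-2 against the biparental ES cell line ORMES-22, and asked which genes, pathways and gene families differ between them beyond the imprinted genes for which the lines were profiled. It used 6 of the 12 Affymetrix rhesus arrays of the series, the 3 biological replicates (A, B and C) of each line, with all 52766 probe sets that are not controls. rPESC-2 came from a parthenogenetic blastocyst, so all of its chromosomes are of maternal origin, and its label describes it as carrying different alleles at its loci. ORMES-22 came from an IVF blastocyst and carries a maternal and a paternal genome. Both lines were grown on inactivated mouse embryonic fibroblast feeders in serum-containing medium, and only colonies judged undifferentiated gave RNA. ORMES-22 A, B and C were at passage 18, 21 and 19, and rPESC-2 A, B and C at passage 16, 10 and 16. The passages of the lines did not overlap, each line stems from 1 embryo, and the replicates of a line share that embryo. Parental origin, embryo and passage therefore cannot be told apart. The p-values measure only the spread between replicates within a group, pooled over the 4 groups of the 12 arrays and not taken from these lines alone. Levels in ORMES-9, a line described as a homozygous parthenote although its source field names a fertilised embryo, are given beside some genes, and the fit also took in adult skin fibroblasts, with 3 arrays each.

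ES cells of primates resemble the epiblast, the embryonic tissue that gives rise to all germ layers, and are held there by FGF and activin/NODAL signals and by transcription factors such as OCT4, SOX2 and NANOG. WNT, NODAL and BMP ligands together with their secreted inhibitors pattern the epiblast at gastrulation, when cells at the anterior primitive streak leave the epithelium and form endoderm and mesoderm. A parthenogenetic embryo lacks paternal chromosomes, and genes expressed only from the paternal copy are then expected to be silent.

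Values are log2 expression levels after RMA summarisation, so a difference of 1 is 2-fold. Levels of 4.26 or less are called background, since 90% of 42 bacterial controls lay at or under that level. Array medians ran from 5.012 to 5.097. A gene was represented by its brightest probe set, and was called when its difference reached 2-fold with an adjusted p below 0.05 in the limma fit over all 12 arrays. Differences are rPESC-2 minus ORMES-22, with the standard error (SE) of the fit.

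The parental labels were checked first on 17 measured genes expressed from the paternal copy. Of these, 6 were called lower in rPESC-2 (SNRPN, MEST, PLAGL1, PEG3, MAGEL2 and SGCE) and 1 higher (DLK1), with the same calls when ORMES-22 A and rPESC-2 B were left out. The share called was 41.2%, against 1.7% of all genes. The other genes of the list were not called, its median difference was -0.14, and 4 of the 17 were at background in both lines. SNRPN, which encodes a splicing protein, read 12.98, 12.85 and 12.56 in ORMES-22 A, B and C and 5.93, 5.66 and 5.77 in rPESC-2 A, B and C. MEST, an enzyme of the hydrolase fold, read 10.75, 10.26 and 10.35 in ORMES-22 and 3.71, 8.95 and 3.86 in rPESC-2. rPESC-2 B thus stood far above the other rPESC-2 cultures for MEST, and the difference was -4.95 with all arrays, -6.67 without rPESC-2 B and -6.52 without ORMES-22 A and rPESC-2 B. Without ORMES-22 B, rPESC-2 A or rPESC-2 C, MEST was no longer called (adjusted p 0.05, 0.06 and 0.061). DLK1, a membrane ligand related to Notch ligands, was higher in rPESC-2 by 1.44 (SE 0.36, adjusted p 0.041), opposite to the other called genes of the group, and lost its call when any array other than ORMES-22 A was left out. None of 24 measured maternally expressed imprinted genes was called by limma, 8 had an unadjusted p under 0.05, and without the 2 arrays 1 was called in each direction (GATM 1.61, PHLDA2 -1.02).

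Over all probe sets, 656 were called (1.24%). Of 12993 genes, 221 were called (1.7%), 132 of them higher (1.02%) and 89 lower (0.685%) in rPESC-2, and 44 differed at least 4-fold. The values of the lines did not overlap for 218 of the 221 called genes, against 23.2% of all genes. When only the 6 compared arrays were fitted, without the spread of the other groups, 116 genes were called. The median difference over all genes was -0.03. Called genes were above background in both lines in 204 cases, while ORMES-22 was at background for 8 genes called higher and rPESC-2 for 9 called lower.

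The replicates were not equally alike. Over all probe sets Pearson's r, a description across features, was 0.9937 to 0.995 within rPESC-2 and 0.9928 between ORMES-22 B and C. ORMES-22 A correlated at 0.9855 and 0.9844 with the other cultures of its own line and at 0.9896, 0.9882 and 0.9883 with the 3 rPESC-2 arrays. In ORMES-22 A, 303 genes lay at least 2-fold above and 172 at least 2-fold below the mean of ORMES-22 B and C, against 14 and 9 genes for rPESC-2 B and its sister cultures. The 3′ over 5′ log2 difference of the ACTB control probe sets, a sign of RNA integrity, was 0.88 in ORMES-22 A and 0.32 and 0.38 in ORMES-22 B and C. It was 0.36 to 0.53 in rPESC-2 and 0.35 to 0.86 in ORMES-9. For GAPDH it was 1, 0.89 and 0.81 in ORMES-22 A, B and C and 0.83 to 1.01 in rPESC-2. The part of RNA integrity in the results was not tested.

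Without ORMES-22 A and rPESC-2 B, limma called 474 genes (3.65%), 271 higher (2.09%) and 203 lower (1.56%). Of the 221 genes called with all arrays, 210 were called again in the same direction and none in the opposite one, and 264 further genes were added. The added genes had a median size of 0.89 with all 12 arrays and 1.19 without the 2, a gain that follows from how they were chosen. Genes called in both fits are therefore given apart from genes called only without the 2 arrays. IL10 and MAMU-E, among others, were called only with all arrays. Single arrays were also left out in turn: of the 79 called genes named by the rule for named genes, 54 stayed called each time, and the exceptions are named beside their values.

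**Figure D1:**
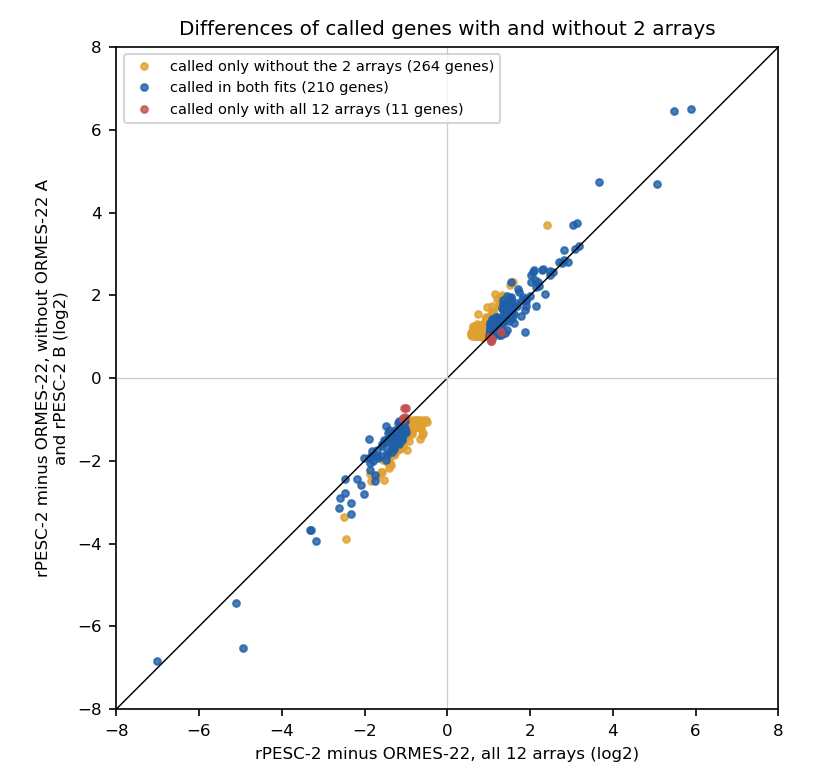
Difference between rPESC-2 and ORMES-22 (log2) for every gene called with or without ORMES-22 A and rPESC-2 B; the x axis gives the fit of all 12 arrays, the y axis the fit without the 2 arrays, and the line marks equal values. The 210 genes called in both fits keep their direction, and the 264 genes called only without the 2 arrays lie farther from 0 on the y axis.

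Among the signalling lists the WNT pathway held the most calls. Of 57 measured genes, 5 were called higher and 1 lower in rPESC-2 (10.5%, against 1.7% of all genes and 4.02% of all listed genes). The lists were chosen with earlier results of these data known, so such shares do not test a list. Counts of the lists below are to be read beside the same shares of 1.7% and 4.02%. The same 6 genes were called without the 2 arrays, when 3 more joined them. When only the 6 compared arrays were fitted, 2 were called. WNT5A, RSPO3, DKK4 and WIF1 then had limma adjusted p of 0.082, 0.087, 0.057 and 0.081. The median difference of the list was -0.03, as over all genes. Of 16 ligands the 1 called was WNT5A, a ligand of the branch independent of beta-catenin, which read 8.39, 9.33 and 9.52 in ORMES-22 A, B and C and 7.65, 7.78 and 7.46 in rPESC-2. It was lower in every rPESC-2 culture, by 1.45 on the log2 scale (difference -1.45, SE 0.24, adjusted p 0.0044; -1.87 without the 2 arrays), and a further probe set of the gene was also called lower (-1.43).

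RSPO3, a secreted protein that strengthens WNT signals, read 5.09, 4.6 and 4.6 in ORMES-22 and 6.02, 6.36 and 5.5 in rPESC-2. LGR5, its receptor and a WNT target, read 4.45, 4.18 and 4.67 in ORMES-22 and 7.19, 6.74 and 6.85 in rPESC-2. All rPESC-2 values of both genes lay above all ORMES-22 values, and the ORMES-22 values of LGR5 lay near background. A further probe set of LGR5 was not called (0.36). The differences were 1.19 (SE 0.2, adjusted p 0.0057) for RSPO3 and 2.49 (SE 0.34, adjusted p 0.0014) for LGR5, and 1.16 and 2.59 without the 2 arrays. RSPO3 fell just under 2-fold, at 0.99, when rPESC-2 B alone was left out.

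Secreted WNT inhibitors were higher in 3 of 12 measured cases, with none lower. DKK1, which blocks the LRP co-receptors, read 5.02, 4.91 and 5.54 in ORMES-22 and 8.28, 8.23 and 8.54 in rPESC-2. That is 9.14-fold higher (difference 3.19, SE 0.18, adjusted p 1.8e-06), with tight replicates in both lines. Its relative DKK4 read 5.47, 5.18 and 5.68 in ORMES-22 and 6.54, 7.78 and 7.32 in rPESC-2, with a difference of 1.77 (SE 0.24, adjusted p 0.0014). WIF1, which binds WNT ligands, read 4.7, 5.12 and 4.46 against 6.02, 6.52 and 5.64, with a difference of 1.3 (SE 0.26, adjusted p 0.014). Without the 2 arrays the differences of DKK1, DKK4 and WIF1 were 3.18, 1.5 and 1.04, and WIF1 lost its call without ORMES-22 C or without rPESC-2 B.

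Receptors and other inhibitors added calls only when the 2 arrays were left out. FZD5 was then higher (1.17), FZD10 lower (-1.48, but 0.03 when ORMES-22 B alone was left out) and APCDD1, an inhibitor at the membrane, lower (-2.1). ORMES-22 A read 7.85 for APCDD1, inside the rPESC-2 range, while ORMES-22 B and C read 10.44 and 9.41. None of 6 measured core components and 5 measured intracellular targets was called in either fit.

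In the NODAL, activin and TGF-beta list 2 of 31 measured genes were called, both higher. GDF3, a ligand of the NODAL type, read 7.28, 7.37 and 6.48 in ORMES-22 and 8.16, 8.34 and 8.32 in rPESC-2 (difference 1.23, SE 0.24, adjusted p 0.012). CER1, a secreted inhibitor of NODAL, BMP and WNT, read 6.37, 6.81 and 6.6 in ORMES-22 and 8.95, 8.53 and 8.92 in rPESC-2, a 4.62-fold difference (2.21, SE 0.3, adjusted p 0.0014). No value overlapped between the lines for either gene, and the differences without the 2 arrays were 1.31 and 2.23. GDF3 lost its call without ORMES-22 C or without rPESC-2 B. SMAD3, a signal transducer of the pathway, was called lower only without the 2 arrays (-1.45), and receptors gave no call among 6 measured.

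**Figure D2:**
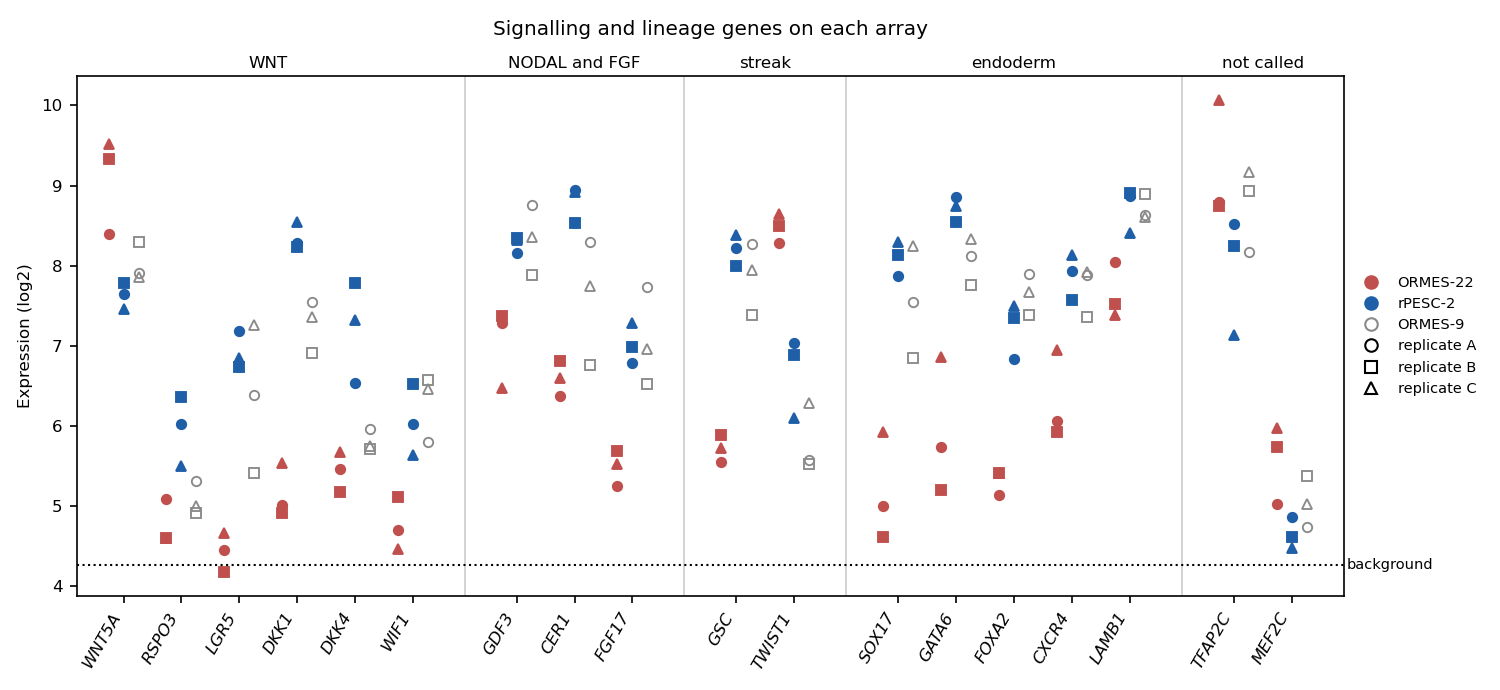
Expression (log2) of signalling and lineage genes on each array of ORMES-22 (red), rPESC-2 (blue) and ORMES-9 (open grey), with the replicate given by the marker shape and the background as a dotted line. For DKK1, GSC, SOX17, GATA6 and FOXA2 all rPESC-2 points lie above all ORMES-22 points, and for WNT5A and TWIST1 below them. The probe sets shown for TFAP2C and MEF2C, the brightest of each gene, were not called with all arrays.

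BMP genes leaned to lower values in rPESC-2, with a list median of -0.32 over 26 measured genes, but with all arrays only ID4 was called. ID4, a BMP-responsive inhibitor of helix-loop-helix factors, read 8.43, 9.25 and 9.43 in ORMES-22 and 7.86, 7.64 and 8.05 in rPESC-2 (difference -1.19, SE 0.26, adjusted p 0.025; -1.39 without the 2 arrays). It lost its call in 4 of the 6 single omissions (ORMES-22 B or C, rPESC-2 A or B). Without the 2 arrays 6 of 26 genes were lower and none higher (23.1%, against 1.56% of all genes called lower in that fit). Of all listed genes 8.44% were called there in either direction. The 6 were ID4, the ligand BMP4 (-1.46), GDF15 (-1.25), the decoy receptor BAMBI (-1.18), and the targets MSX2 (-1.99) and ID3 (-1.08). GDF15 is a divergent TGF-beta family member that the list held as a ligand, not a BMP. BMP4 read 9.15, 9.98 and 10.54 in ORMES-22 A, B and C and 8.87, 8.52 and 8.73 in rPESC-2, so that ORMES-22 A lay between the lines. ID3 read 10.2 in ORMES-22 A, below all rPESC-2 values (10.75, 10.45 and 11.09), against 11.81 and 12.18 in ORMES-22 B and C. With all arrays the calls of the BMP group beyond ID4 were not made.

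Among 30 measured genes of the FGF and ERK pathway, the ligand FGF17 was called higher and the feedback inhibitor SPRED2 lower. FGF17 read 5.25, 5.69 and 5.53 in ORMES-22 and 6.79, 6.99 and 7.28 in rPESC-2 (difference 1.53, SE 0.25, adjusted p 0.0041; 1.42 without the 2 arrays). SPRED2 read 8.19, 9.19 and 8.95 against 7.8, 7.61 and 7.83 (difference -1.03, adjusted p 0.014; -1.25 without the 2 arrays) and was uncalled without ORMES-22 B, ORMES-22 C or rPESC-2 B. SPRY4, a further feedback inhibitor, was called lower only without the 2 arrays (-1.52). None of 7 receptors was called.

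Of 48 measured chemokines, interleukins and their receptors, 3 were called higher (6.2%, against 1.7% of all genes and 4.02% of all listed genes). CXCR4, the CXCL12 receptor of migrating endoderm cells, read 6.06, 5.92 and 6.95 in ORMES-22 and 7.93, 7.57 and 8.13 in rPESC-2 (difference 1.57, SE 0.25, adjusted p 0.0042; 1.59 without the 2 arrays). ACKR3, the scavenging receptor for the same ligand, read 8.03, 7.02 and 6.76 against 8.28, 8.46 and 8.36 (difference 1.09, adjusted p 0.023; 1.43 without the 2 arrays) and lost its call when any array other than ORMES-22 A was left out. IL10, an anti-inflammatory cytokine, was at 1.01 (adjusted p 0.013), and at 0.98 without the 2 arrays, so it was not called there. It also lost its call without ORMES-22 B, ORMES-22 C or rPESC-2 B, and a further probe set of IL10 differed by -0.02.

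Other signalling pathways gave no call with all arrays. In limma, 0 of 24 Notch genes were called (8 at an unadjusted p under 0.05; largest difference NOTCH2 at 0.55) and 0 of 12 Hedgehog genes (5; GLI2 at 0.32), and neither list gained a call without the 2 arrays. There were likewise 0 of 15 retinoic acid genes (5; CRABP1 at -1.18), 0 of 18 insulin and IGF genes (5; IGFBP2 at 0.9) and 0 of 58 ephrin, semaphorin, slit and netrin genes (22; EPHA1 at -1.6). Without the 2 arrays CRABP1 was called lower (-1.48) and IGFBP2 higher (1.05). In the guidance list SEMA6D (1.59), SEMA4G (1.09) and EFNA3 (1.06) were then called higher and EPHA1 (-2.28), SEMA3C (-2.47) and SLIT2 (-1.06) lower. With all arrays a dimmer probe set of SEMA6D was called higher (1.23), while others were not called (0.81 and 0.24). EPHA1, an ephrin receptor, read 5.64 in ORMES-22 A and 7.9 and 7.75 in ORMES-22 B and C, against 5.87, 5.41 and 5.2 in rPESC-2. Further probe sets of EPHA1 differed by -1.85, -1.94 and 0.65, and none was called with all arrays. The last, which went the other way, averaged 7.89 in ORMES-22 and 8.54 in rPESC-2.

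Pluripotency genes were read in both lines, and none of the 24 measured was called by limma (7 at an unadjusted p under 0.05), and all 24 were above background in both lines. POU5F1, which encodes OCT4, averaged 13.12 ± 0.11 (SD, n = 3) in ORMES-22 and 12.87 ± 0.19 in rPESC-2, SOX2 11.84 ± 0.29 and 12.09 ± 0.08, and NANOG 8.41 ± 0.46 and 7.95 ± 0.27 (adjusted p 0.42, 0.36 and 0.2). TFAP2C had the largest difference (-1.23, adjusted p 0.11), and NR5A2 was called lower only without the 2 arrays (-1.5).

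Of 29 measured endoderm genes 5 were called higher in rPESC-2 and none lower, and 16 of the 29 had a positive difference. That is 17.2% called, against 1.7% of all genes and 4.02% of all listed genes. The same 5 were called without the 2 arrays. SOX17, a founding transcription factor of endoderm, read 5, 4.62 and 5.93 in ORMES-22 and 7.87, 8.13 and 8.3 in rPESC-2. GATA6, a factor of primitive endoderm and early definitive endoderm, read 5.74, 5.2 and 6.86 against 8.86, 8.55 and 8.75, and FOXA2, a pioneer factor of endoderm, 5.14, 5.42 and 5.42 against 6.83, 7.35 and 7.5. All rPESC-2 values of these genes lay above all ORMES-22 values, and ORMES-22 C was the highest ORMES-22 culture for SOX17 and GATA6.

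The differences were 2.92 for SOX17 (SE 0.35, adjusted p 0.00053), 2.78 for GATA6 (SE 0.31, adjusted p 0.00038) and 1.89 for FOXA2 (SE 0.18, adjusted p 9.9e-05). Without the 2 arrays they were 2.81, 2.77 and 1.74. CXCR4 is given above, and LAMB1, a laminin chain of the basement membrane, was higher by 1.08 (adjusted p 0.0037; 1.19 without the 2 arrays), though not called without ORMES-22 C or without rPESC-2 B. DAB2, an endocytic adaptor of extraembryonic endoderm, went the other way and its brightest probe set was called lower only without the 2 arrays (-1.72), while 2 further ones were called lower with all arrays (-1.9 and -2.13). The summed linear level of the 29 genes was 9500 to 10400 on the ORMES-22 arrays, 11800 to 12500 on the rPESC-2 arrays and 12100 to 12600 in ORMES-9. Such a sum includes the called genes and weighs bright genes most, so it is not separate from the calls. The list median was 0.07, and a further probe set of SOX17 was not called (0.7).

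Of 27 measured genes of the primitive streak and mesoderm, GSC was called higher and TWIST1 lower. GSC, a homeobox gene of the anterior streak, read 5.55, 5.89 and 5.72 in ORMES-22 and 8.22, 8 and 8.38 in rPESC-2, a 5.58-fold difference (2.48, SE 0.2, adjusted p 2.7e-05; 2.5 without the 2 arrays). TWIST1, a helix-loop-helix factor of mesenchyme, read 8.28, 8.49 and 8.64 against 7.03, 6.89 and 6.1 (difference -1.8, SE 0.24, adjusted p 0.0013; -2 without the 2 arrays). The lines did not overlap for either gene, and rPESC-2 C lay below its sister cultures for TWIST1. MEF2C, a myogenic factor, joined the lower genes without the 2 arrays (-1.19). With all arrays a dimmer probe set of MEF2C was called lower (-1.3), while others were not called (-0.21 and -0.09).

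Lists of other lineages gave few calls. None of 29 neural and neural crest genes was called by limma (10 at an unadjusted p under 0.05), although without the 2 arrays PAX6 (-1.7) and SOX3 (-1.03) were lower and SOX11 was higher (1.14). None of 24 trophoblast genes (4 at an unadjusted p under 0.05; largest TFAP2C) and none of 26 HOX genes (10; HOXD4 at -0.82) was called in either fit. Of 26 germ cell genes KIT was higher: this receptor of stem cell factor read 7.39, 6.15 and 6.55 in ORMES-22 and 8.02, 8.22 and 8.38 in rPESC-2 (difference 1.51, adjusted p 0.009; 1.85 without the 2 arrays). The germ cell transcripts beyond KIT had no call, and 14 of the 26 were at background in both lines.

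Markers of cells that could be carried along were also read. Of 17 measured fibroblast and feeder markers COL6A3 and TWIST1 were called lower in rPESC-2 and none higher, with THY1 added without the 2 arrays (-1.05). Their summed linear level was 43400, 49200 and 48000 in ORMES-22 A, B and C and 38900, 35700 and 31200 in rPESC-2, with no overlap, and 30400 to 35600 in ORMES-9. Linear sums weigh bright genes most, and VIM, which was not called, averaged 13.4 in ORMES-22 and 12.6 in rPESC-2. COL1A1 (-0.82), COL1A2 (-0.26), COL3A1 (-0.32) and DCN (0.03) were not called, and 3 of the 17 markers had a positive difference. The list median was -0.34, the part of these markers in the results was not tested, and LUM and FAP, which mark fibroblasts, were at background in both lines. On whole cultures, fewer cells of a type and less RNA per cell cannot be told apart. Of 16 blood cell markers GZMA, a granule protease of lymphocytes, was called higher. It read 6.88, 4.84 and 5.14 against 8.83, 8.8 and 8.64 (difference 3.14, adjusted p 0.00072; 3.74 without the 2 arrays), and 3 further probe sets of GZMA were called higher too. PTPRC, the pan-leukocyte marker, was at background in both lines (4.09 and 4.01), while the summed level of the 16 markers, GZMA included, was 600 to 700 in ORMES-22 and 900 to 1000 in rPESC-2. None of 14 endothelial markers was called by limma (4 at an unadjusted p under 0.05; largest ENG at -0.43) in either fit.

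Most called epithelial genes were higher in rPESC-2. Of 44 measured junction, keratin and epithelial regulator genes 4 were called higher and 1 lower, against 9 and 1 without the 2 arrays. That is 11.4% and 22.7% of the list, where 1.7% and 3.65% of all genes were called, and the list median was 0.18 in both fits. Of all listed genes 4.02% and 8.44% were called. RAB25, a GTPase of apical recycling, read 6.6, 5.89 and 5.24 in ORMES-22 and 8.13, 7.73 and 8.13 in rPESC-2 (difference 2.08, SE 0.27, adjusted p 0.00093). CLDN7, a tight junction claudin, read 6.92, 6.52 and 6.66 against 8.24, 8.32 and 8.57 (difference 1.67, SE 0.13, adjusted p 1.7e-05). F11R, the junctional adhesion molecule A, read 11.32, 10.82 and 10.48 against 12.32, 12.43 and 12.32 (difference 1.49, SE 0.17, adjusted p 0.00044).

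These genes were separated between the lines on every array, and RAB25, CLDN7 and F11R differed by 2.56, 1.81 and 1.67 without the 2 arrays. OVOL2, a zinc finger factor that maintains epithelium, was higher by 1.13 (adjusted p 0.029; 1.43 without the 2 arrays) but lost its call when any array other than ORMES-22 A was left out. GRHL3, a grainyhead factor of surface epithelium, went the other way, at 6.08, 6.99 and 6.83 in ORMES-22 and 5.66, 5.24 and 5.37 in rPESC-2 (difference -1.21, adjusted p 0.0078; -1.4 without the 2 arrays). The genes added without the 2 arrays were EPCAM (1.31), KRT19 (1.41), CLDN3 (1.01), CLDN10 (1.43) and GRHL1 (1.07), and 2 further probe sets of KRT19 were called higher with all arrays. For EPCAM, an adhesion molecule of epithelia and ES cells, ORMES-22 A read 10.79, within the rPESC-2 values of 10.63, 10.8 and 10.54, while ORMES-22 B and C read 9.18 and 9.37. The summed linear level of the 44 genes was 18900, 17600 and 17300 in ORMES-22, 24000 to 24700 in rPESC-2 and 26600 to 27200 in ORMES-9. These sums include the called genes and weigh bright genes such as F11R most, so they are not separate from the calls.

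**Figure D3:**
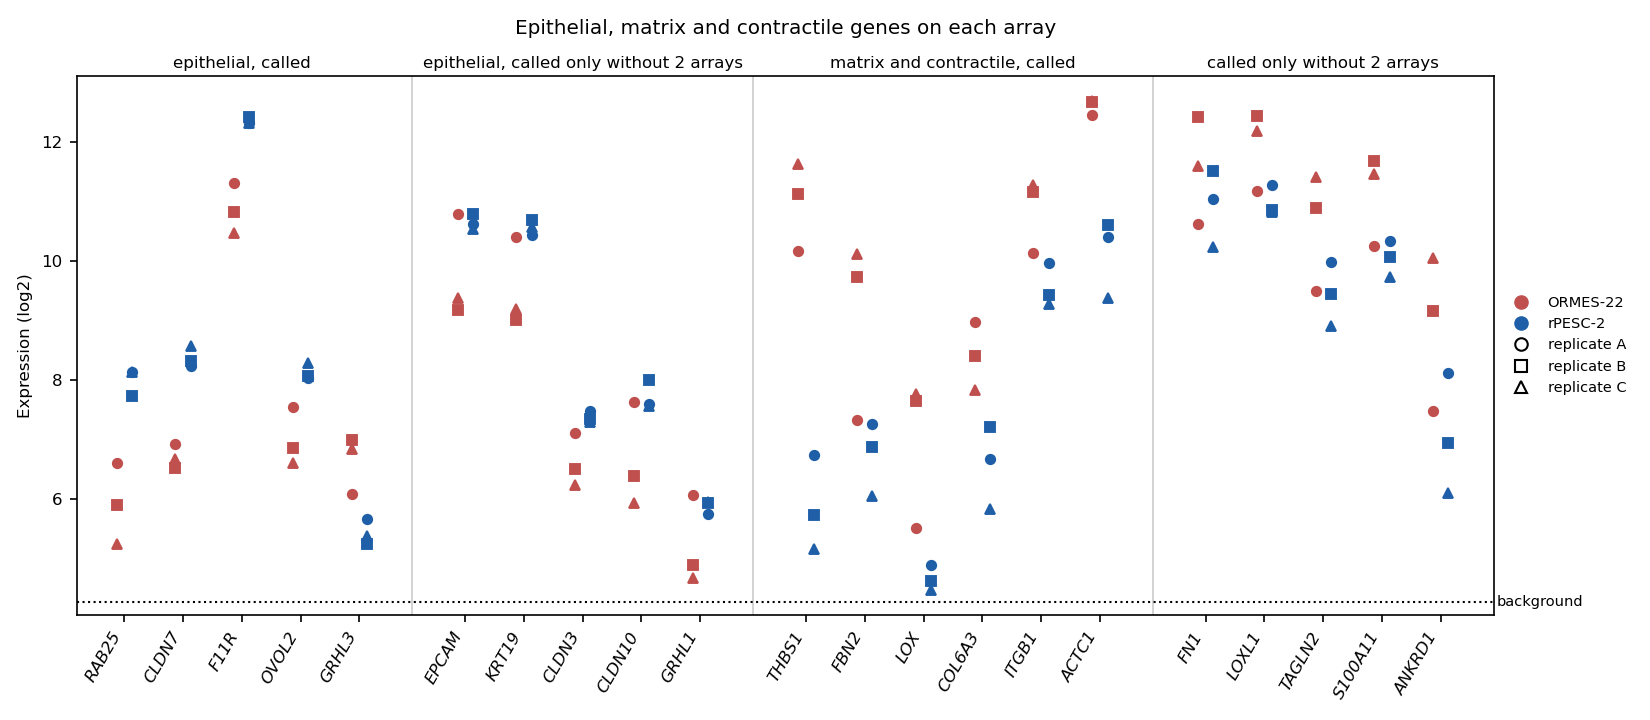
Expression (log2) of epithelial, matrix and contractile genes on each array of ORMES-22 (red) and rPESC-2 (blue); circles, squares and triangles are replicates A, B and C, and the dotted line is the background. In the groups called only without 2 arrays, the circle of ORMES-22 A lies at or near the rPESC-2 points, as for EPCAM at 10.79, while ORMES-22 B and C lie apart.

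Called genes of the extracellular matrix and of contraction were lower in rPESC-2, apart from P4HA1 and LAMB1. The fibroblast and feeder markers given above were lower in summed level on the same arrays, and their part in these differences was not tested. Of 54 matrix glycoproteins and proteoglycans 2 were called, both lower, and 5 without the 2 arrays, all lower. THBS1, a matrix glycoprotein that activates TGF-beta and a YAP target, read 10.17, 11.13 and 11.64 in ORMES-22 and 6.74, 5.73 and 5.15 in rPESC-2, a 34.4-fold difference (-5.11, SE 0.43, adjusted p 4e-05; -5.44 without the 2 arrays). It was the largest decrease outside the imprinted genes, and of 4 further probe sets 2 were called lower (-2.49 and -4.06) and 2 were not called (-0.65 and -0.06). FBN2, a microfibril protein, read 7.33, 9.73 and 10.12 in ORMES-22 and 7.25, 6.87 and 6.04 in rPESC-2. ORMES-22 A thus lay next to rPESC-2, and the difference of -2.34 (adjusted p 0.046) became -3.28 without the 2 arrays. A further probe set of FBN2, at background, was not called (-0.16). FBN2 lost its call when any array other than ORMES-22 A was left out. Added without the 2 arrays were FN1, fibronectin (-1.37), ECM1 (-1.5) and SRPX2 (-1.62).

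Of 45 collagens and collagen-modifying enzymes, COL6A3 and LOX were called lower and P4HA1 higher. COL6A3, a chain of collagen VI, read 8.97, 8.4 and 7.83 against 6.66, 7.2 and 5.82 (difference -1.84, adjusted p 0.0061; -1.88 without the 2 arrays). LOX, which cross-links collagen and elastin, read 5.51, 7.65 and 7.77 against 4.89, 4.62 and 4.46 (difference -2.32, adjusted p 0.013; -3.03 without the 2 arrays) and was not called without ORMES-22 B or without rPESC-2 B. Its 2 further probe sets were not called (-0.4 each). P4HA1, a prolyl hydroxylase needed for collagen folding, read 9.24, 7.82 and 8.09 against 10.16, 10.3 and 9.92 (difference 1.74, adjusted p 0.0039; 2.08 without the 2 arrays), and a further probe set of it was not called (-0.23). Called only without the 2 arrays were P4HA2 (1.24) and PLOD2 (1.03), which hydroxylate collagen, as higher, and the cross-linking enzyme LOXL1 (-1.26) and the collagen chain COL7A1 (-1.02) as lower.

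Of 27 integrins and laminins, ITGB1 was lower and LAMB1 higher. ITGB1, the common beta chain of matrix integrins, read 10.14, 11.16 and 11.28 against 9.97, 9.43 and 9.28 (difference -1.3, adjusted p 0.026; -1.6 without the 2 arrays). It lost its call when ORMES-22 B or C or rPESC-2 B or C was left out. Of 41 cadherins CDH13, which lacks an intracellular domain, was lower (-1.12, adjusted p 0.034; -1.46 without the 2 arrays), with the same 4 single omissions ending the call. PCDH18 was added without the 2 arrays (-1.48).

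Of 52 actomyosin and muscle genes ACTC1 and MYL7 were called lower and none higher, against 5 and none without the 2 arrays. ACTC1, the cardiac actin, read 12.46, 12.68 and 12.7 in ORMES-22 and 10.41, 10.61 and 9.37 in rPESC-2, with all ORMES-22 cultures alike (difference -2.48, SE 0.28, adjusted p 0.00034; -2.79 without the 2 arrays). MYL7, the atrial myosin light chain, was at -1.08 (adjusted p 0.014; -1.34 without the 2 arrays) and was not called without ORMES-22 B, ORMES-22 C or rPESC-2 C. TAGLN2 (-1.71), CNN1 (-1.19) and TPM1 (-1.01), which bind actin, were added without the 2 arrays. With all arrays a dimmer probe set of TAGLN2 was called lower (-1.18). In the Hippo list of 25 genes THBS1 was the 1 gene called, and without the 2 arrays the YAP targets ANKRD1 (-2.5), FJX1 (-1.13) and AMOTL1 (-1.17) and the YAP partner TEAD4 (-1.1) were lower as well. The median of the 12 measured YAP targets was -0.44 with all arrays and -0.77 without the 2.

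Of 54 proteases, inhibitors and serpins, ADAMTS19 and CTSV were higher and PLAU lower. The share called was 5.6%, against 1.7% of all genes and 4.02% of all listed genes. ADAMTS19, a secreted metalloprotease, read 6.11, 5.02 and 5.12 against 7.55, 7.72 and 7.87 (difference 2.3, SE 0.23, adjusted p 0.00015; 2.64 without the 2 arrays). PLAU, the urokinase plasminogen activator, was at -1.2 (adjusted p 0.02; -1.53) and CTSV, a lysosomal cathepsin, at 1.12 (adjusted p 0.033; 1.31), and each lost its call in 4 single omissions. SERPINE2 was higher (1.14) and MMP19 (-1.39), MMP10 (-1.18) and ADAM19 (-1.08) were lower only without the 2 arrays. Of 28 S100, annexin and galectin genes ANXA6 was lower (-1.33, adjusted p 1.1e-05) and ANXA10 higher (1.21, adjusted p 0.0087), with S100A11 (-1.54) and S100A10 (-1.06) added without the 2 arrays.

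**Figure D4:**
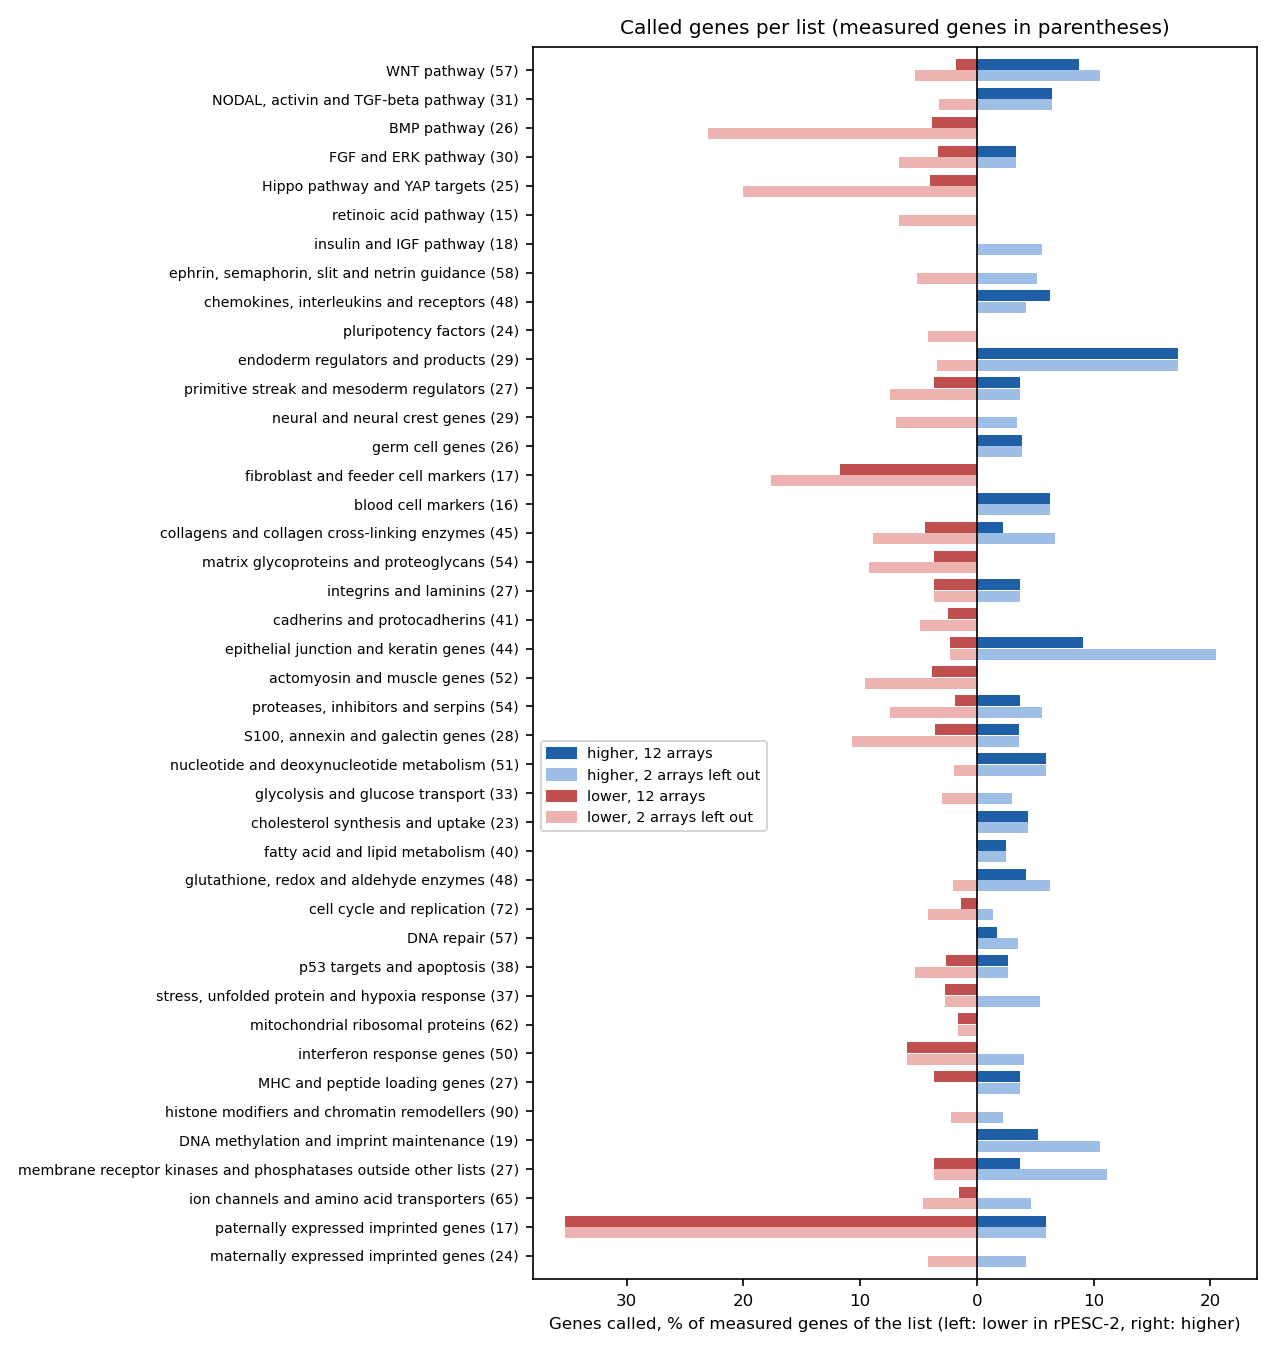
Genes called per list as a percentage of its measured genes, to the right when higher and to the left when lower in rPESC-2; dark bars use all 12 arrays and light bars leave out ORMES-22 A and rPESC-2 B, and lists with no call in either fit are left out. The endoderm bar for higher genes has the same length in both fits, whereas the BMP, Hippo and epithelial bars are longer in the light colour.

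Enzymes of nucleotide metabolism held the largest increases of the whole comparison. Of 51 measured genes 3 were called higher and none lower (5.9%, against 1.7% of all genes and 4.02% of all listed genes). DCTD, which deaminates dCMP, read 5.26, 3.28 and 3.09 in ORMES-22 and 9.78, 9.92 and 9.58 in rPESC-2, with ORMES-22 B and C at background. DERA, which splits deoxyribose phosphate, read 7.61, 4.43 and 4.64 against 11, 11.14 and 10.96. In both genes ORMES-22 A stood between its sister cultures and rPESC-2, but no value overlapped. ORMES-9 averaged 9.28 for DCTD and 10.95 for DERA, near the rPESC-2 means of 9.76 and 11.04.

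DCTD differed by 5.88 (SE 0.42, adjusted p 1e-05) and by 6.49 without the 2 arrays. DERA differed by 5.48 (SE 0.6, adjusted p 0.00032) and by 6.45. The 3 further probe sets of DCTD were each called higher, but by 1.21, 3.29 and 4.04. SHMT1, which supplies one-carbon units for thymidylate, was higher by 1.19 (adjusted p 0.0029; 1.35 without the 2 arrays) and fell to 0.97 without ORMES-22 C. DUT, which clears dUTP, was lower only without the 2 arrays (-1.05).

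Of 48 glutathione, redox and aldehyde enzymes GSTO1 and MT1E were called higher. GSTO1, a glutathione transferase, read 5.81, 5.4 and 5.23 in ORMES-22 and 7.74, 8.37 and 8.02 in rPESC-2 (difference 2.56, SE 0.16, adjusted p 4e-06, and 2.56 without the 2 arrays). MT1E, a metallothionein with close paralogs, read 9.24, 8.16 and 9.09 against 10.79, 10.87 and 11.23 (difference 2.13, SE 0.25, adjusted p 0.00048; 2.38 without the 2 arrays). Its relative MT2A went the other way without the 2 arrays (-1.02), and GSTA4 was higher there (1.95). Paralogs can share signal on the array.

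Lipid and energy lists gave 2 calls. LIPA, the lysosomal acid lipase, was the 1 gene of 23 called in the cholesterol list (1.42, adjusted p 0.036; 1.55 without the 2 arrays) and lost its call in 4 single omissions. FABP5, a fatty acid carrier, was the 1 of 40 in the fatty acid list, at 10.81, 9.87 and 9.98 against 11.44, 11.45 and 11.35 (difference 1.19, adjusted p 0.004; 1.47 without the 2 arrays), with a further probe set not called (-0.34). None of 33 glycolysis and glucose transport genes was called (10 at an unadjusted p under 0.05 in limma). PFKP, the platelet phosphofructokinase, read 11.41, 9.67 and 8.93 in ORMES-22 and 6.26, 10.46 and 7.69 in rPESC-2, with rPESC-2 B far above the other rPESC-2 cultures. It was at -1.87 (adjusted p 0.23) with all arrays and at -2.32 (adjusted p 0.0027) without the 2, when ALDOC was also called higher (1.01). None of 55 subunits of oxidative phosphorylation was called in either fit (8 at an unadjusted p under 0.05; largest COX7A1 at -0.78).

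**Figure D5:**
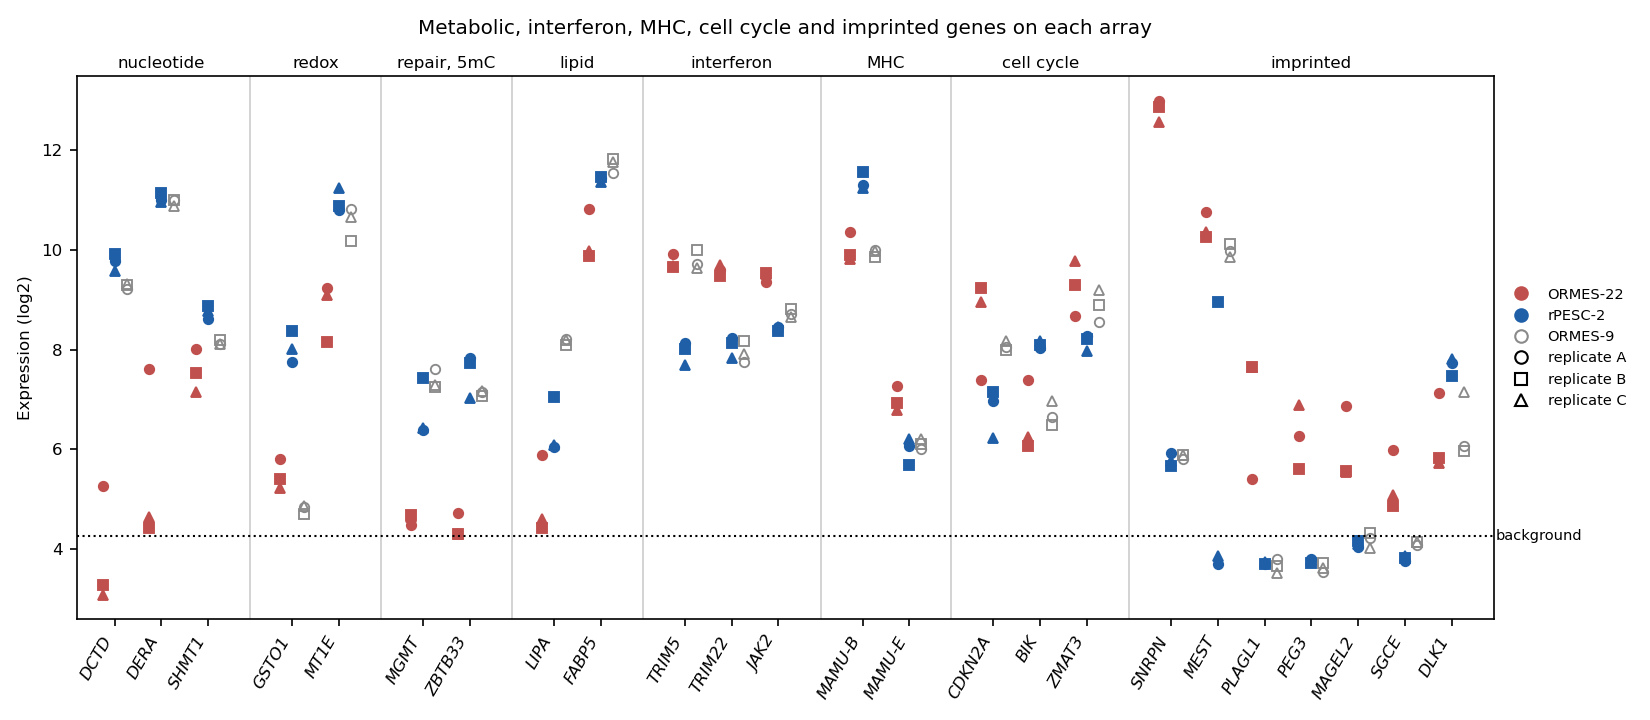
Expression (log2) of metabolic, interferon, MHC, cell cycle and imprinted genes on each array of ORMES-22 (red), rPESC-2 (blue) and ORMES-9 (open grey), with the replicate given by the marker shape and the background as a dotted line. GSTO1 and MAMU-B are high in rPESC-2 alone among the ES lines, TRIM5 is low in rPESC-2 alone, and MEST shows rPESC-2 B at 8.95 against 3.71 and 3.86 in its sister cultures.

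Of 50 interferon response genes 3 were called, all lower in rPESC-2 and all again without the 2 arrays, and the list median was 0. The share called was 6%, against 1.7% of all genes and 4.02% of all listed genes. TRIM5, a restriction factor of retroviral capsids, read 9.91, 9.66 and 9.68 in ORMES-22 and 8.13, 8.01 and 7.68 in rPESC-2 (difference -1.81, SE 0.13, adjusted p 1e-05), and 2 further probe sets were called lower. TRIM22, a related protein of the TRIM family, read 9.59, 9.48 and 9.69 against 8.23, 8.13 and 7.83 (difference -1.52, SE 0.13, adjusted p 4.3e-05). JAK2, a kinase of cytokine receptors, read 9.36, 9.53 and 9.52 against 8.46, 8.38 and 8.45 (difference -1.04, SE 0.08, adjusted p 1.9e-05), while its further probe sets differed by 0.08 and 0.03. Here ORMES-22 A lay with its own line, and the differences without the 2 arrays were -1.77, -1.56 and -1.07. UBE2L6 (1.6) and SAMD9L (1.05) were called higher only without the 2 arrays.

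Of 27 MHC and peptide loading genes MAMU-B was higher and MAMU-E lower (7.4%, against 1.7% of all genes and 4.02% of all listed genes). MAMU-B, a classical class I gene, read 10.36, 9.9 and 9.82 against 11.3, 11.55 and 11.23 (difference 1.33, adjusted p 0.00013; 1.4 without the 2 arrays), while a further probe set of it differed by -0.19. MAMU-E was at -1 (adjusted p 0.0018) and at -0.72 without the 2 arrays, so its call rested on them. It was also lost when either of them was left out alone, or with array medians subtracted. Class I genes are near-identical in sequence and vary between animals, and the array cannot assign their signal with certainty.

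Of 72 cell cycle and replication genes CDKN2A was the 1 called. CDKN2A, the locus of p16 and ARF, read 7.39, 9.23 and 8.96 in ORMES-22 and 6.97, 7.14 and 6.22 in rPESC-2 (difference -1.75, adjusted p 0.023; -2.5 without the 2 arrays), and was not called without ORMES-22 B, ORMES-22 C or rPESC-2 C. Its further probe sets were not called (-0.12 and -0.09). CCND1 (-1.05) and CDKN1A (-1.07) were also lower and CCNA1 higher (1.92) only without the 2 arrays. Of 57 DNA repair genes MGMT, which removes alkyl groups from guanine, was higher, at 4.48, 4.69 and 4.65 against 6.38, 7.43 and 6.43 (difference 2.14, SE 0.24, adjusted p 0.00041; 1.74 without the 2 arrays), and NEIL1 joined it without the 2 arrays (1.08).

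Of 38 p53 targets and apoptosis genes, BIK, a pro-apoptotic BH3-only protein, was higher (1.54, adjusted p 0.0064; 1.95 without the 2 arrays) and ZMAT3, a p53 target, lower (-1.1, adjusted p 0.019; -1.41), the latter with 4 single omissions ending the call. GADD45B was added without the 2 arrays (-1.39). Of 37 genes of the stress and hypoxia responses ADM, a peptide hormone induced by hypoxia, was lower (-1.12, adjusted p 0.026; -1.25), and was not called without ORMES-22 B, rPESC-2 A or rPESC-2 C. DDIT4 (1.46) and EGLN1 (1.22), also hypoxia-induced, were higher only without the 2 arrays. Of 62 mitochondrial ribosomal proteins MRPL54 was lower, at 9.54, 10.09 and 9.86 against 7.74, 8 and 8.11 (difference -1.88, adjusted p 1.6e-05; -2.05). None of 31 proteasome genes was called in either fit (4 at an unadjusted p under 0.05 in limma; largest PSMG2 at 0.36).

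Chromatin genes gave few calls. None of 90 histone modifiers and remodellers was called by limma, although 32 had an unadjusted p under 0.05 and the list median was 0.17. SIRT5 (1.03) and KDM3A (1.3) were higher and SMYD2 (-1.27) and PHC2 (-1.16) lower only without the 2 arrays. Of 19 genes of DNA methylation and imprint maintenance ZBTB33 was higher: this reader of methylated CpG, on chromosome X, read 4.73, 4.31 and 4.3 in ORMES-22 and 7.82, 7.73 and 7.02 in rPESC-2, an 8.46-fold difference (3.08, SE 0.18, adjusted p 2.2e-06; 3.12 without the 2 arrays). A further probe set of ZBTB33, at background in both lines, differed by 0.4 and was not called. TET1, which oxidises 5-methylcytosine, was higher only without the 2 arrays (1.5), with ORMES-22 A at 10.82 among rPESC-2 values of 10.76, 11.11 and 10.6 and ORMES-22 B and C at 9.28 and 9.08.

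Among 27 receptor kinases and phosphatases ERBB3 was higher (1.39, adjusted p 0.025; 1.8 without the 2 arrays), with 4 single omissions ending the call, and PTPRB, a phosphatase of vascular receptors, lower (-1.19, adjusted p 0.00099; -1.08). RET (1.2) and PTPRF (1.02) were added without the 2 arrays. Of 65 ion channels and amino acid transporters CLIC5, a chloride channel protein bound to actin, was lower, at 8.43, 8.17 and 8.42 against 6.8, 7.12 and 7.28 (difference -1.27, adjusted p 6.9e-05; -1.25). None of its 6 further probe sets was called (-0.78 to 0.03). KCNG3 (1.55), KCNS3 (1.17) and SLC6A15 (1.11) were higher and P2RX4 (-1.11) and KCNK1 (-1.06) lower only without the 2 arrays.

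Across the 49 lists, 70 of 1741 measured genes were called (4.02%), and 147 without the 2 arrays (8.44%). The largest differences outside the lists were GCA, SH3YL1, C1H1orf115, PIGP and KYNU, higher in rPESC-2, and AKAP7, SPATS2L, CSGALNACT2 and MECOM, lower. GCA, a calcium-binding protein of granulocytes, read 3.91, 3.95 and 3.95 in ORMES-22, all at background, and 8.83, 9.68 and 8.47 in rPESC-2 (adjusted p 3.3e-07). Counted from the background it was at least 26.6-fold higher (measured difference 5.06, and 4.7 without the 2 arrays). KYNU, kynureninase of tryptophan breakdown, read 5.01, 4.84 and 5.4 against 8.13, 7.78 and 7.8 (difference 2.82, adjusted p 0.00044; 2.85), but its 3 further probe sets were not called. SPATS2L, a cytoplasmic RNA-associated protein, read 9.67, 11.01 and 11.19 against 7.45, 7.12 and 7.4 (difference -3.3, adjusted p 5.9e-05; -3.67). MECOM, a zinc finger oncogene, read 6.39, 8.02 and 7.82 against 5.13, 4.39 and 4.91 (difference -2.6, adjusted p 0.0011; -2.9), with a further probe set called lower.

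SH3YL1 differed by 3.67, C1H1orf115 by 3.04 and PIGP, a subunit of the first enzyme of GPI anchor synthesis, by 2.83 (4.73, 3.69 and 3.09 without the 2 arrays). SH3YL1 was at 3.05 without ORMES-22 C and C1H1orf115 at 2.37 without ORMES-22 B. AKAP7, an anchoring protein of protein kinase A, differed by -3.33, and CSGALNACT2, an enzyme of chondroitin sulphate synthesis, by -2.63 (-3.68 and -3.15). rPESC-2 was at background for both on every array, so that counted from the background they were at least 9.23-fold and 3.4-fold lower. Further probe sets of AKAP7 and CSGALNACT2 lay near or under background in both lines and were not called. Further probe sets above background were also not called for SPRED2, CDH13, PLAU, ZMAT3, TRIM22 and MAMU-E. WNT5A (-0.77), ID4 (-1.27 and -0.15), TRIM5 (0.01) and ERBB3 (-0.23 and 0.31) had uncalled further probe sets as well. For these genes other further probe sets were called in the direction of the gene. Of 161 further probe sets above background, from 98 of the 221 called genes, 44 were called in the same direction, 117 were not called, none was called in the opposite direction and 80.7% had the same sign. Without the 2 arrays 114 of 366 were called in the same direction and none opposite.

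Levels in ORMES-9 were set against rPESC-2 for the 79 called genes named by the rule; in that comparison 215 genes were called (1.65%). THBS1, SPATS2L, MECOM, TRIM5 and CLIC5 were lower in rPESC-2 than in ORMES-9 as well (differences -4.61, -3.01, -3.03, -1.84 and -1.82, adjusted p 6.5e-05, 8.8e-05, 0.00028, 5.6e-06 and 2.3e-06). So were MEST (-4.47, adjusted p 0.025) and GRHL3 (-1.32, adjusted p 0.0038). GSTO1 was higher in rPESC-2 than in ORMES-9 by 3.24 (adjusted p 3.1e-07), with ORMES-9 at 4.84, 4.7 and 4.87. DKK1 and GZMA were higher than in ORMES-9 by 1.07 and 1.9 (adjusted p 0.0045 and 0.014), and so were ANXA10, BIK and MAMU-B by 2.72, 1.4 and 1.42 (adjusted p 2e-05, 0.0092 and 5.4e-05). DKK4, CER1 and CTSV were higher as well, by 1.41, 1.19 and 1.17 (adjusted p 0.0048, 0.04 and 0.023). RAB25 and LIPA, higher in rPESC-2 than in ORMES-22, were lower than in ORMES-9 (-1.42 and -1.78, adjusted p 0.0087 and 0.0095), and MRPL54, lower than in ORMES-22, was higher than in ORMES-9 (1.7, adjusted p 2.4e-05). The comparisons share the rPESC-2 arrays, so they are not independent. For GSC, SOX17, GATA6, FOXA2, LGR5, MT1E and ADAMTS19 the rPESC-2 to ORMES-9 difference was not called (0.34, 0.55, 0.64, -0.43, 0.57, 0.41 and 0.21, adjusted p 0.26 or more), which does not show that these lines are alike. The same held for DCTD, DERA, GCA, SH3YL1, C1H1orf115, PIGP, KYNU, AKAP7 and CSGALNACT2, among the largest differences from ORMES-22. Their differences from ORMES-9 were 0.48, 0.08, 0.02, 0.14, -0.07, -0.22, 0.09, -0.05 and -0.04 (limma adjusted p 0.68 or more).

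The share of genes called ran from 0.92% on chromosomes 16 and 17 to 3.24% on chromosome 12, and chromosome medians lay between -0.07 and 0.03, leaving aside the 2 measured genes of chromosome Y. On chromosome X, 4 of 482 genes were called higher and 1 lower (1.04%), with a median of -0.02, and 7 and 2 without the 2 arrays.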

How the data were processed

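Total RNA of 12 rhesus samples was hybridised to 1 array each after one-cycle biotin labelling, per the labels' protocols. The authors deposited log2 values per probe set, and the submitters' processing notes name RMA; its version is not given in the sources used here, and log2 was inferred from the range of the values. RMA makes arrays alike in distribution and understates differences near background. Of 52865 features, 99 controls were left out; 42 bacterial controls set the background. The platform annotation gave 24956 probe sets 1 symbol, 361 several and 27449 none; 24616 matched the T2T-MMU8v2.0 gene table, used for names and chromosomes only. Probe sets with LOC symbols (1691) were left out, giving 12993 genes, each by its brightest probe set over 12 arrays.

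Tests used limma 3.58.1 (R 4.3.3) with 1 mean per group (8 residual and 3.69 prior degrees of freedom, two-sided p, Benjamini-Hochberg adjustment over all probe sets), after a test on simulated data. The text names the 12 genes most increased and the 12 most decreased that held without ORMES-22 A and rPESC-2 B and did not overlap, up to 4 called genes per list or the 1 with the largest difference, and further members that account for a list's count. The 49 gene lists hold 2347 genes, 1741 of them measured and 44 in more than 1 list. Members and lists were chosen with earlier results of these data known. No set test was made. No array held identical values to another, and the labels give no batch. Precision is limited by 3 arrays per line. Alternatives are given in the closing section; promoter composition was not analysed here.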

Additional observations from a re-analysis of the deposited data

How the results depend on the processing

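With all 12 arrays limma called 656 probe sets, 221 genes and 70 genes of the lists. The counts moved by over 1.5 times when only the 6 arrays compared were fitted (332, 116 and 32), with array weights (1006, 357 and 108), with no minimum difference (2536, 876 and 164) and with a 3-fold minimum (207, 75 and 33). Without ORMES-22 A and rPESC-2 B together they were 1286, 474 and 147. Leaving out each array in turn gave 460 to 1493 probe sets, 165 to 545 genes and 54 to 156 listed genes, the highest without ORMES-22 A in each case. The other settings stayed within 1.5 times: the 9 ES cell arrays alone, dim probe sets left out, quantile normalization, array medians subtracted, trended and robust eBayes and, for listed genes, the mean of a gene's probe sets or the brightest over 6 arrays. The share of called probe sets that were higher ran from 52.2% (3-fold minimum) to 69.7% (without rPESC-2 C), against 61.9% with all arrays. None of the 221 called genes was called in the opposite direction under these settings, and no setting moved the median of all probe sets by over 0.1.

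Cultures of the same replicate letter did not vary together: their deviations from the line mean correlated at -0.21, -0.31 and -0.03. ORMES-22 A with rPESC-2 B, B with C and C with A correlated at 0.35, 0.25 and 0.22. The other different-letter pairs lay between -0.17 and 0.06. Whether the cultures were paired in another way was not tested. With the letter as a replicate block, 631 probe sets, 215 genes and 67 listed genes were called, 212 of the 221 genes among them. Of the named genes FBN2, CDH13, LIPA and DLK1 then had adjusted p of 0.056, 0.055, 0.056 and 0.054.

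Of 79 named called genes, 37 were called under all 13 settings run for them, and 42 lost the call when only 6 arrays were fitted. The 42 included WNT5A, DKK4, CXCR4, KIT, COL6A3, P4HA1, GRHL3, ANXA10, FABP5 and BIK, which kept the call in each single omission. The same was true of SH3YL1, C1H1orf115, MECOM, CSGALNACT2, PLAGL1, MAGEL2 and SGCE. FZD10, uncalled with all arrays (-0.66), was at 0.03 without ORMES-22 B and at -1.39 without ORMES-22 A. Chromosome medians, Y aside, were -0.05 to 0.02 without the 2 arrays. Promoter GC and CpG content was planned and not run. Signal near background limits genes such as DCTD, GCA, PLAGL1 and PEG3, whose differences may be understated.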

Other observations

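Outside the lists 151 genes were called, 93 higher and 58 lower in rPESC-2, and 142 of them again without ORMES-22 A and rPESC-2 B. The genes named here were chosen after their values were seen. KMO, the kynurenine enzyme next to KYNU in tryptophan breakdown, read 8.84, 9.51 and 10.05 in ORMES-22 and 8.57, 8.25 and 8.14 in rPESC-2 (difference -1.15, limma adjusted p 0.045; -1.42 without the 2 arrays), but lost its call when any array other than ORMES-22 A was left out. WFDC2, a secreted protease inhibitor of epithelia, read 7.64, 7.03 and 6.96 against 9.32, 9.59 and 9.33 (2.2, adjusted p 3.5e-05; 2.33), and PRSS8, a membrane serine protease of epithelia, was higher by 1.06 (adjusted p 0.016; 1.33), though not called without ORMES-22 C (0.75) or rPESC-2 B (1.04). HESX1, a homeobox gene of the anterior epiblast and forebrain, was higher by 1.34 (adjusted p 0.035; 1.88), and not called without ORMES-22 B, ORMES-22 C (0.96), rPESC-2 A or rPESC-2 C.

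CREB3L4, a membrane-bound transcription factor of the secretory pathway, read 5.19, 5.05 and 5.19 against 7.66, 7.68 and 8.19 (2.7, adjusted p 2.7e-07; 2.8), with ORMES-9 at a mean of 5.05. ELAVL2, a neuronal RNA-binding protein, read 6.46, 6.5 and 6.71 against 4.28, 4.77 and 4.07 (-2.18, adjusted p 5.9e-06; -2.43). NOX4, an NADPH oxidase, read 5.69, 7.11 and 7.56 against 5.46, 4.58 and 4.02 (-2.09, adjusted p 0.02; -2.59), and was not called without ORMES-22 B, ORMES-22 C (-1.71), rPESC-2 B or rPESC-2 C. By symbol family, 4 of 284 ZNF zinc finger genes were called higher and none lower (9 and 3 without the 2 arrays). Of 290 SLC transporters 2 were called higher and none lower. None of 151 olfactory receptors and 57 GPR receptors was called in either fit. Among all genes 1.02% were called higher and 0.685% lower, and these counts do not set a family apart. Of the 656 called probe sets, 274 had no single gene symbol and were not described.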
